A study of Mus musculus with 8 samples.

Results

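The collagen and laminin chains of the mouse heart were compared between animals given lipopolysaccharide (LPS), a bacterial surface glycolipid that acts as endotoxin, and animals given saline. A chain was included where the transcript accession of a gene probe mapped to a symbol of the form Col with an alpha chain number, Lama, Lamb or Lamc. The 44 genes described here were covered by 71 probes, of 15597 genes with a probe on the array. The hearts came from 12-week-old female C57BL/6 mice on chow, 4 injected intraperitoneally with LPS at 5 mg/kg and 4 with saline, and all were collected 8 h later after perfusion with PBS. Total RNA of each heart was amplified to biotin-labelled cRNA and read on 1 array of spotted long oligonucleotides. No group carried a transgene or a deletion, and an endotoxin injection models the inflammatory part of sepsis without a living infection.

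Collagens are trimers of alpha chains. The fibrillar types I, III and V form the stress-bearing fibres of the cardiac interstitium and are made mainly by fibroblasts. Type IV collagen and the laminins form the 2 networks of the basement membrane that surrounds each cardiomyocyte and lies under the endothelium, and type VI collagen forms beaded filaments between that sheet and the fibres. Each laminin is a trimer of 1 alpha, 1 beta and 1 gamma chain.

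Of the 44 chains, 25 exceeded background on 4 or more of the 8 arrays and entered the test, which covered 12100 genes and unnamed probes in all. A spot was above background where its signal exceeded the 95th percentile of the negative-control spots. Values are log2 intensities after background correction and quantile normalization, differences are LPS minus saline with the standard error (SE) of limma's linear model, and "rose" or "fell" means a Benjamini-Hochberg adjusted p under 0.05 over all tested features. The levels of different chains cannot be set against each other, since each probe has its own response, so only changes are compared between chains.

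With LPS, 7 of the 25 tested chains fell, which is 28%, where 9.36% of all tested features fell. Another 2 rose, which is 8%, where 9.3% of all tested features rose. The type IV chains Col4a1 and Col4a2 rose, while the laminin chains Lama2, Lamb2 and Lamb3, the fibrillar chains Col1a1 and Col5a1 and the type VI chains Col6a1 and Col6a2 fell. The median change over the 25 chains was -0.31 on the log2 scale, beside -0.04 over all tested features. The LPS and saline values did not overlap in 6 chains that were lower with LPS and 2 that were higher, where such separation was seen in 12.1% and 11.1% of all tested features. In whole-heart RNA, fewer cells of a type and less RNA per cell cannot be told apart.

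**Figure D1:**
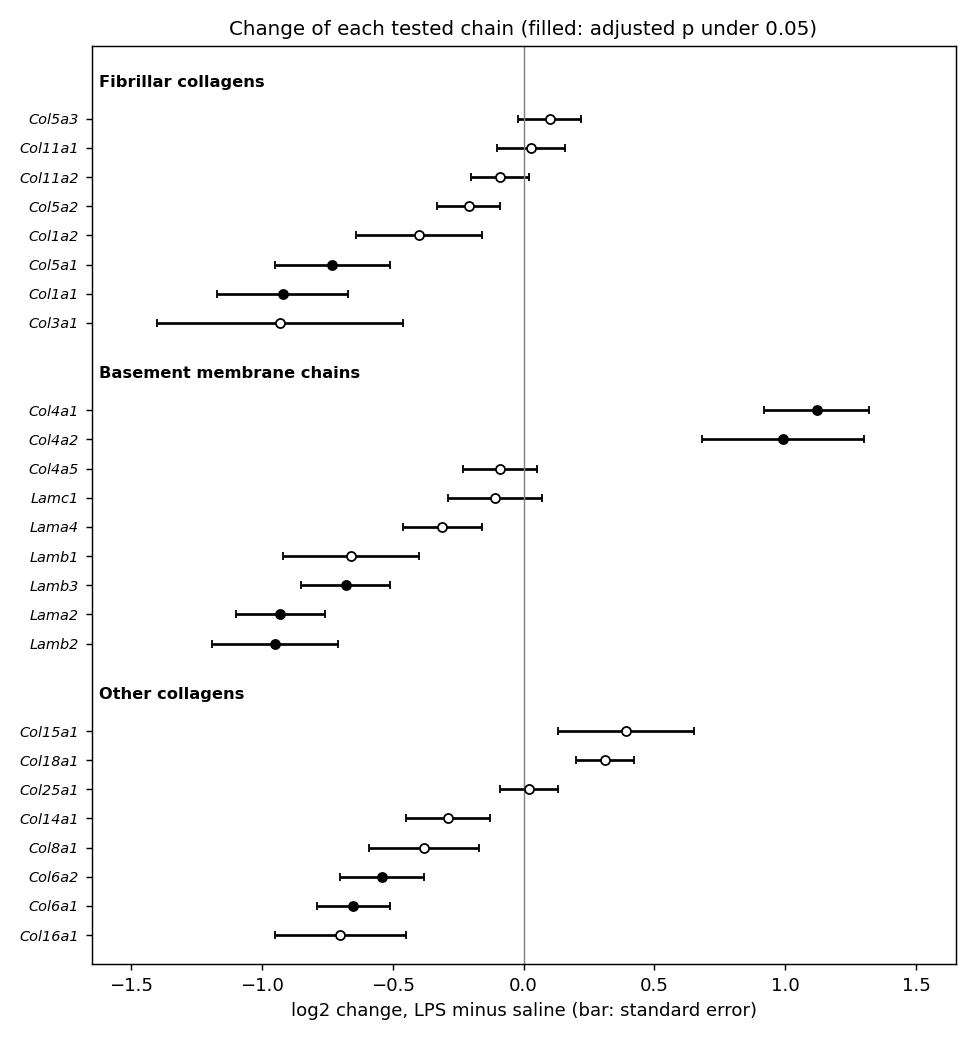
Log2 change (LPS minus saline, horizontal axis) of the 25 tested chains in 3 classes, with the standard error as a bar and filled points for an adjusted p under 0.05 (4 arrays a group). The 2 type IV chains at the top of the basement membrane block lie at 1.12 and 0.99, and the 7 filled points left of 0 lie between -0.95 and -0.54.

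Col4a1 and Col4a2 encode the chains of the most widespread type IV collagen, which assembles from 2 Col4a1 products and 1 Col4a2 product. They are neighbouring genes read in opposite directions. In the RefSeq promoter windows (GRCm38.p6, 250 bases before to 50 after each start) the starts were 21 bases apart, at base 11312826 for Col4a1 on the minus strand and 11312805 for Col4a2 on the plus strand of chromosome 8. The windows, chr8:11312777-11313076 and chr8:11312555-11312854, share 78 bases (chr8:11312777-11312854). They are shown because these are the chains that rose together, each 5′ to 3′ on its own gene's strand, with the shared stretch in capitals.
Col4a1: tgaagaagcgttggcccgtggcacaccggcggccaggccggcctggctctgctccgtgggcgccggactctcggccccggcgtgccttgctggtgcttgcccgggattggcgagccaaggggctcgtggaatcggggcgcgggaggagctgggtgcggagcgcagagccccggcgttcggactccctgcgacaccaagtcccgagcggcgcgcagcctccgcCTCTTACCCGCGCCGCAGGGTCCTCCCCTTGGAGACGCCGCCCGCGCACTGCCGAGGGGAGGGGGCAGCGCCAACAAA
Col4a2: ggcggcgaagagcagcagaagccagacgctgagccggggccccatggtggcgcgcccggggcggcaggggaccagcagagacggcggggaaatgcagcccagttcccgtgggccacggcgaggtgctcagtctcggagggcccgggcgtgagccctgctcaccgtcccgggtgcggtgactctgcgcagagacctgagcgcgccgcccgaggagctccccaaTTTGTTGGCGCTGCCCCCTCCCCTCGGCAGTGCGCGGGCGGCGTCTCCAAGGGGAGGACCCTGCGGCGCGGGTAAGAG

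The promoter windows of 2 chains that fell, Lama2 (chr10:27616893-27617192, minus strand) and Col6a1 (chr10:76725995-76726294, minus strand), are shown beside them because both falls kept an adjusted p under 0.05 whichever single array was left out. Here capitals mark the motif matches described next.
Lama2: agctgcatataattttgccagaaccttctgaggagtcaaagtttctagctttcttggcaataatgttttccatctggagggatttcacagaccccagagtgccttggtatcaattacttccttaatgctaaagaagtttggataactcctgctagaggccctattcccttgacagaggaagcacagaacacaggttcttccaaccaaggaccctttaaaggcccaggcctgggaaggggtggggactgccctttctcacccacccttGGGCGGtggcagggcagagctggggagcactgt
Col6a1: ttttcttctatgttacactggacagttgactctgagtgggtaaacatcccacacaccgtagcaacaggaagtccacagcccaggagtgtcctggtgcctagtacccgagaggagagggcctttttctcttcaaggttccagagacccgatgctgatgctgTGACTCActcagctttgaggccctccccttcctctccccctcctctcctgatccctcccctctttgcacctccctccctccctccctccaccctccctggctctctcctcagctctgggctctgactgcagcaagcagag

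The 5 short motifs were searched on both strands, and none of the searched words is contained in another. The window of Lama2 held 1 GC box (GGGCGG), a word found in 35.7% of all 32851 RefSeq windows of the mouse, and that of Col6a1 held 1 AP-1 word (TGANTCA), found in 7.8%. Col4a1 held 1 GC box and 1 CCAAT box (CCAAT, 37.4% of all windows), and Col4a2 held 3 and 1. The GC box of Col4a1 and 1 of the 3 of Col4a2 are the same bases of the shared stretch, counted once for each gene. Neither of the type IV windows held the TATA word (TATAAA, 13.6%), the AP-1 word or the NF-kB consensus (1.6%). The type IV windows were 74.0% and 73.7% G or C, against 50.3% for Lama2, 57.3% for Col6a1 and a median of 52.7% over all windows. Of the 25 tested chains, 20 had a window in the table. A match describes letters and says nothing of a factor bound there.

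The normalized level of Col4a1 was 13.42, 13.58, 12.68 and 13.37 on the LPS arrays, against 12.05, 12.44, 11.94 and 12.14 on the saline arrays. Every LPS array lay above every saline array. The difference was 1.12 (SE 0.20, limma adjusted p = 0.0042), a 2.17-fold rise. Col4a2 read 12.38, 13.52, 13.14 and 14.05 with LPS, against 12.06, 12.28, 12.11 and 12.67 with saline. Here LPS 1 lay within the saline range and the other three LPS arrays above it. Col4a2 rose by 0.99 (SE 0.31, limma adjusted p = 0.048). No difference between the 2 changes was shown: Col4a1 minus Col4a2 was 0.13 with an SE of 0.41, so a sizeable difference would have gone undetected. On the scanner's own scale, before normalization, the background-subtracted brightness of Col4a1 was 12724, 9987, 5244 and 7085 with LPS, against 8675, 6600, 3281 and 4434 with saline. Those raw values overlap, and the arrays also differed in overall brightness, with a median gene-probe signal of 12 to 18 on LPS arrays and 15 to 32 on saline arrays.

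The third measured type IV chain, Col4a5, which belongs to networks of more restricted tissues, changed by -0.09 (SE 0.14, limma adjusted p = 0.71), and its other probe read -0.16. Col4a3 and Col4a4 were above background on no array, and Col4a6 on 1 LPS and 1 saline array. The rise of Col4a1 passed the test whichever single array was left out, with changes between 1.01 and 1.31. That of Col4a2 passed only when LPS 1 was left out (1.29), and adjusted p values reached 0.123 among the other omissions, where its change ran down to 0.73 without LPS 4. With each array scaled to the median of all gene probes in place of quantile normalization, the median of all tested features moved to -0.31, and the rises of Col4a1 (0.75, limma adjusted p = 0.1) and Col4a2 (0.62, 0.128) missed the threshold.

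Endothelial cells are a main source of type IV collagen in vessels. All 10 genes of the endothelial marker list were tested, 9 of them above background on all 8 arrays. In this list 3 fell (30%, beside 9.36% of all tested features) and none rose. The list median was -0.58, and the summed linear level ran between 7808 and 12933 on LPS arrays and between 13049 and 17464 on saline arrays. The smooth muscle and pericyte list had 8 tested genes, 6 of them above background on all 8 arrays. In this list 5 fell (62.5%) and none rose, and Kcnj8, among the falls, was above background on only 1 LPS array. The sums were 5546 to 7565 with LPS and 8573 to 12173 with saline. They rest mostly on Abcc9, whose mean of 12.01 with LPS and 12.69 with saline was the highest of the list. Which cells gave the Abcc9 signal was not tested, so these sums need not follow smooth muscle cells or pericytes. The summed level of both lists was thus lower on every LPS array than on any saline array. Their part in the changes of the chains was not tested.

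**Figure D2:**
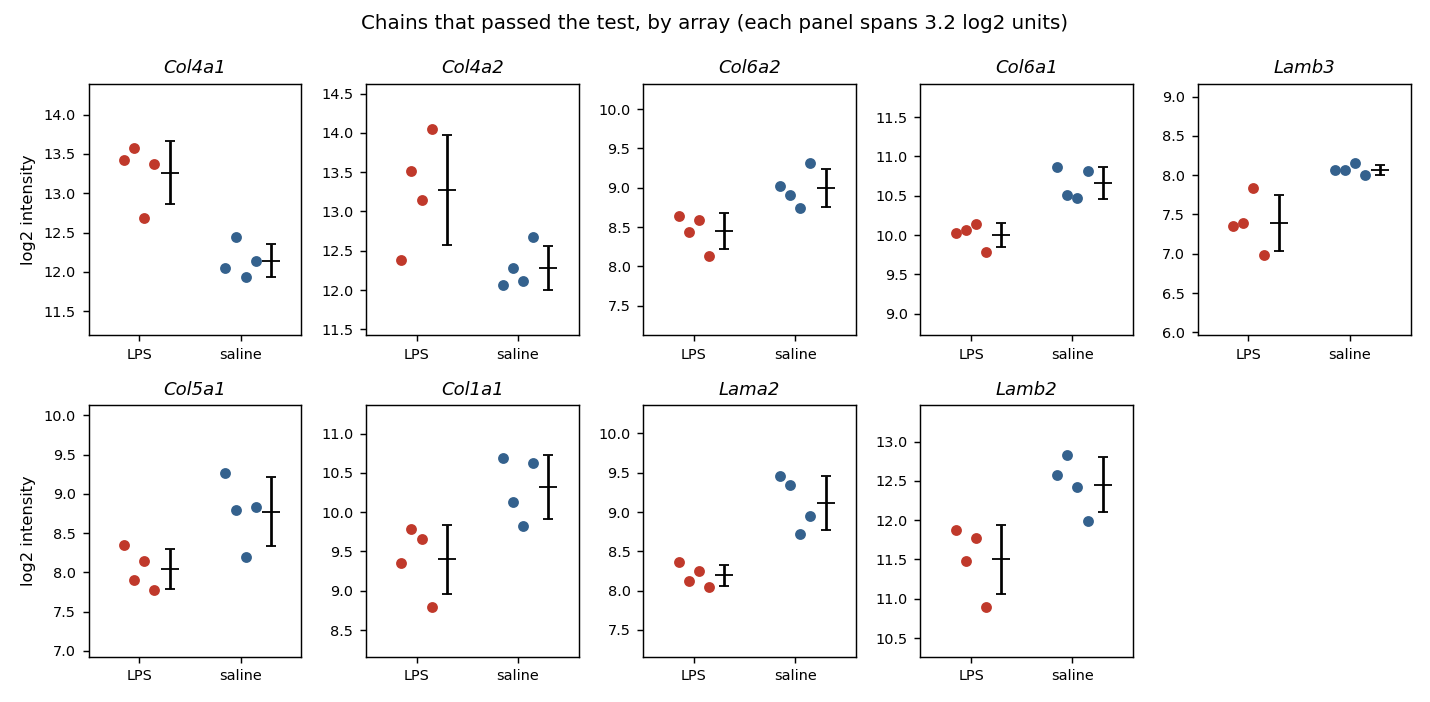
Log2 intensity (vertical axis) of the 9 chains that passed the test on each LPS array (red, left) and each saline array (blue, right), with the group mean and SD beside the points (n = 4 each). The groups separate in 7 of the 9 panels, and overlap for Col4a2, through LPS 1, and for Col5a1, through saline 3.

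Falls were found among the laminins. Of the 6 laminin chains tested and described here, 3 fell and 3 did not pass the test, with a median of -0.67. Over all tested features 9.36% fell. Lama2 encodes the alpha2 chain, the laminin alpha chain of the muscle basement membrane, whose loss causes a congenital muscular dystrophy. It read 8.36, 8.12, 8.25 and 8.05 with LPS, against 9.46, 9.35, 8.72 and 8.95 with saline. The groups did not overlap, and Lama2 fell by 0.93 (SE 0.17, limma adjusted p = 0.00521), to a level 1.9-fold lower. No single array carried this fall: without each array in turn it stayed between -1.06 and -0.81, past the threshold each time. Lama4, the alpha4 chain of endothelial basement membranes, read 7.54, 7.46, 7.36 and 7.39 with LPS, against 8.09, 7.88, 7.46 and 7.58 with saline. Its groups overlapped at saline 3, and the change of -0.31 (SE 0.15) did not pass the test (limma adjusted p = 0.179).

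Among the beta chains, Lamb2, which pairs with alpha2 at neuromuscular junctions and in cardiac muscle, read 11.87, 11.48, 11.77 and 10.89 with LPS, against 12.57, 12.83, 12.42 and 11.99 with saline. All LPS arrays lay below all saline arrays, and Lamb2 fell by 0.95 (SE 0.24, limma adjusted p = 0.0209). The more widely expressed beta1 chain, Lamb1, read 7.10, 6.95, 6.80 and 7.34 with LPS, against 8.39, 7.99, 7.09 and 7.38 with saline. Saline 3 lay among the LPS arrays, and the change of -0.66 (SE 0.26) did not pass (limma adjusted p = 0.108). Without saline 3 the Lamb1 change was -0.87, with an adjusted p of 0.0361. The call on Lamb2 was lost without LPS 2, saline 1 or saline 2, at changes of -0.94, -0.91 and -0.82 and adjusted p values up to 0.0621.

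The gamma1 chain, Lamc1, is shared by nearly all laminins of muscle and vessels. It read 10.10, 10.48, 10.13 and 10.26 with LPS, against 10.74, 10.59, 10.03 and 10.06 with saline. Both groups covered much the same range, and the change was -0.11 (SE 0.18, limma adjusted p = 0.705). Its sign turned to 0.25 on the first scan day. The fall of Lama2 exceeded that of Lamc1 by 0.82 (SE 0.15) and that of Lamb2 exceeded it by 0.83 (SE 0.30), each at the smallest p that 70 arrangements of the arrays allow, an exact two-sided permutation p of 0.0286. Adjusted over 13 pairs of chains that share a trimer, these became 0.124. With so few arrangements the adjusted values could hardly have passed, so they say little about whether the chains differ, and 3 of the 13 pairs were under 0.05 before adjustment. Lama2 and Lamb2 changed by nearly the same amount, with a difference of 0.02 (SE 0.22, exact permutation p = 1).

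Lamb3 encodes the beta3 chain of the laminin found in epithelial anchoring structures. It read 7.35, 7.39, 7.84 and 6.98 with LPS, against 8.06, 8.06, 8.15 and 8.0 with saline, with no overlap and a tight saline group. Lamb3 fell by 0.68 (SE 0.17, limma adjusted p = 0.0205). Lama3 and Lama5 had no probe matched here and were not analysed here. Lama1 and Lamc3 were above background on no array. The Lamb3 call was lost without LPS 2 or saline 2, with adjusted p values up to 0.0549.

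Over the basement membrane class, 9 of 14 chains were tested, and 2 rose (22.2%) and 3 fell (33.3%), beside 9.3% and 9.36% of all tested features. The class median was -0.31 and its changes ran from -0.95 to 1.12, the widest range of the 3 classes.

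The fibrillar collagens showed falls without a rise. Of 10 chains with a probe 8 were tested and 2 fell (25%, beside 9.36% of all tested features). The class median was -0.31, with a range of -0.93 to 0.10. Col1a1, the major chain of type I collagen, read 9.35, 9.79, 9.66 and 8.79 with LPS, against 10.69, 10.13, 9.83 and 10.62 with saline. The groups did not overlap, although LPS 2 came within 0.1 of saline 3, and Col1a1 fell by 0.92 (SE 0.25, limma adjusted p = 0.0305). Col1a2, the partner chain, read 7.22, 7.36, 7.28 and 6.94 with LPS, against 8.27, 7.74, 7.04 and 7.37 with saline. Saline 3 lay among the LPS arrays, and the change of -0.40 (SE 0.24) did not pass (limma adjusted p = 0.268). Col1a1 minus Col1a2 was -0.52 (SE 0.24, exact permutation p = 0.0857), so a difference between the partners was not shown.

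Col3a1, the chain of type III collagen, had the largest standard error of the 25 chains. It read 8.20, 9.22, 8.10 and 7.91 with LPS, against 10.42, 9.72, 8.01 and 9.0 with saline. The ranges of the groups overlapped widely, with saline 3 among the LPS arrays, and the change of -0.93 (SE 0.47) did not pass (limma adjusted p = 0.2). Without saline 3 it was -1.35, with an adjusted p of 0.0395. Col5a1, a type V chain that starts fibrils and limits their width, read 8.35, 7.90, 8.14 and 7.78 with LPS, against 9.27, 8.79, 8.20 and 8.83 with saline. The groups overlapped at saline 3, but Col5a1 fell by 0.73 (SE 0.22, limma adjusted p = 0.0418). It passed under 10 of 17 other settings, and missed with cyclic loess in place of quantile normalization (-0.67, limma adjusted p = 0.0688).

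The other fibrillar chains did not pass the test. The type V chains Col5a2 and Col5a3 changed by -0.21 (-0.50 with local background subtracted) and 0.10, and the type XI chain Col11a1 by 0.03. Col11a2 was above background on no LPS array and on all 4 saline arrays, and its measured difference of -0.09 gives no fold. Col2a1, the cartilage collagen, was above background nowhere, and Col27a1 on 1 LPS array. Leaving out single arrays ended the call on Col1a1 in 5 of 8 fits (without LPS 1, LPS 4, saline 1, saline 2 or saline 4; adjusted p up to 0.0818) and that on Col5a1 in 6 of 8 (all but LPS 1 and saline 3; up to 0.113).

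Fibroblasts are the main source of these fibrillar chains. Of 10 genes on the fibroblast marker list 9 were tested, all above background on all 8 arrays. Among them 3 fell (33.3%) and 1 rose (11.1%), beside 9.36% and 9.3% of all tested features. The list median was -0.54, and the summed level of 25369 to 33788 with LPS overlapped 29166 to 39478 with saline. The riser was Dcn, which also belongs to the proteoglycans described further on. Dcn had the highest mean of the list (14.32 with LPS, 13.84 with saline), followed by Gsn (12.6 and 13.65). The sum therefore rests mostly on Dcn and Gsn, which moved in opposite directions at the probes used. With the kept probes of a gene averaged, the change of Dcn was -0.15 (limma adjusted p = 0.605). The part of the fibroblast genes in the fibrillar changes was not tested.

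The remaining class joins network-forming, fibril-associated and membrane collagens. Of 20 chains 8 were tested and 2 fell (25%, beside 9.36% of all tested features), with a class median of -0.33. Both falls were chains of type VI collagen, which anchors basement membranes to the interstitium and whose mutations cause myopathies. Col6a1 read 10.02, 10.07, 10.14 and 9.79 with LPS, against 10.86, 10.51, 10.47 and 10.81 with saline. Its groups lay apart, each within a narrow band, and it fell by 0.65 (SE 0.14, limma adjusted p = 0.00948). The 2 other probes of Col6a1 read -0.35 and -0.31, and the mean over its probes, -0.44, missed the threshold (limma adjusted p = 0.0686). Col6a2 read 8.64, 8.44, 8.59 and 8.13 with LPS, against 9.02, 8.91, 8.74 and 9.32 with saline. Again no LPS array reached a saline array, and Col6a2 fell by 0.54 (SE 0.16, limma adjusted p = 0.0405).

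No difference between the falls of the 2 type VI chains was shown, Col6a1 minus Col6a2 being -0.11 (SE 0.10, exact permutation p = 0.314). Col6a1 passed without each array in turn, between -0.72 and -0.58. Col6a2 did not pass without LPS 2, LPS 4, saline 1, saline 2 or saline 4, with changes of -0.57 to -0.44 and adjusted p values up to 0.108. It passed under 7 of 17 other settings. Among the misses were cyclic loess in place of quantile normalization (-0.49, limma adjusted p = 0.064) and local background subtracted (-0.64, 0.0594). Col6a6 was above background on no array, and Col6a3, the third chain of the common type VI trimer, was not analysed here.

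Col15a1 and Col18a1 encode the collagens of the vascular and epithelial basement membrane zone that carry heparan or chondroitin sulphate chains and release endostatin-like fragments. Col18a1 read 6.99, 7.14, 6.96 and 7.11 with LPS, against 6.70, 6.81, 6.65 and 6.81 with saline. All LPS arrays were higher, but the change of 0.31 (SE 0.11) did not pass (limma adjusted p = 0.0757). It passed under 5 of 17 other settings, with local background subtracted (0.62, limma adjusted p = 0.037), mean spot brightness (0.62, 0.0251), no filter (0.0255), a robust prior (0.0438) and array weights (0.0481). Col15a1 read 8.80, 8.59, 8.08 and 8.55 with LPS, against 8.35, 8.19, 7.32 and 8.60 with saline. The groups overlapped, and the change was 0.39 (SE 0.26, limma adjusted p = 0.34).

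The fibril-associated chains Col16a1 and Col14a1 changed by -0.70 (SE 0.25, limma adjusted p = 0.0761) and -0.29. Without saline 3 the Col16a1 change was -0.92, with an adjusted p of 0.0164. Col8a1, a short-chain network collagen of vessels, changed by -0.38 (limma adjusted p = 0.23), and its other tested probe read -0.64. With mean spot brightness in place of the median its change was -0.97 (limma adjusted p = 0.0225). The membrane collagen Col25a1 changed by 0.02. The rest of the class stayed below the filter. Col10a1, Col13a1, Col17a1, Col19a1, Col26a1, Col8a2, Col9a1 and Col9a3 were above background on no array. Col23a1 reached it on 1 LPS and 2 saline arrays, Col7a1 on 2 LPS arrays, and Col9a2 on 1 LPS array. In all, 19 of the 44 chains had no test, and the 10 chains of the RefSeq gene table with no probe matched here (the others being Col12a1, Col20a1, Col22a1, Col24a1, Col28a1, Col6a4 and Col6a5) were not analysed here.

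**Figure D3:**
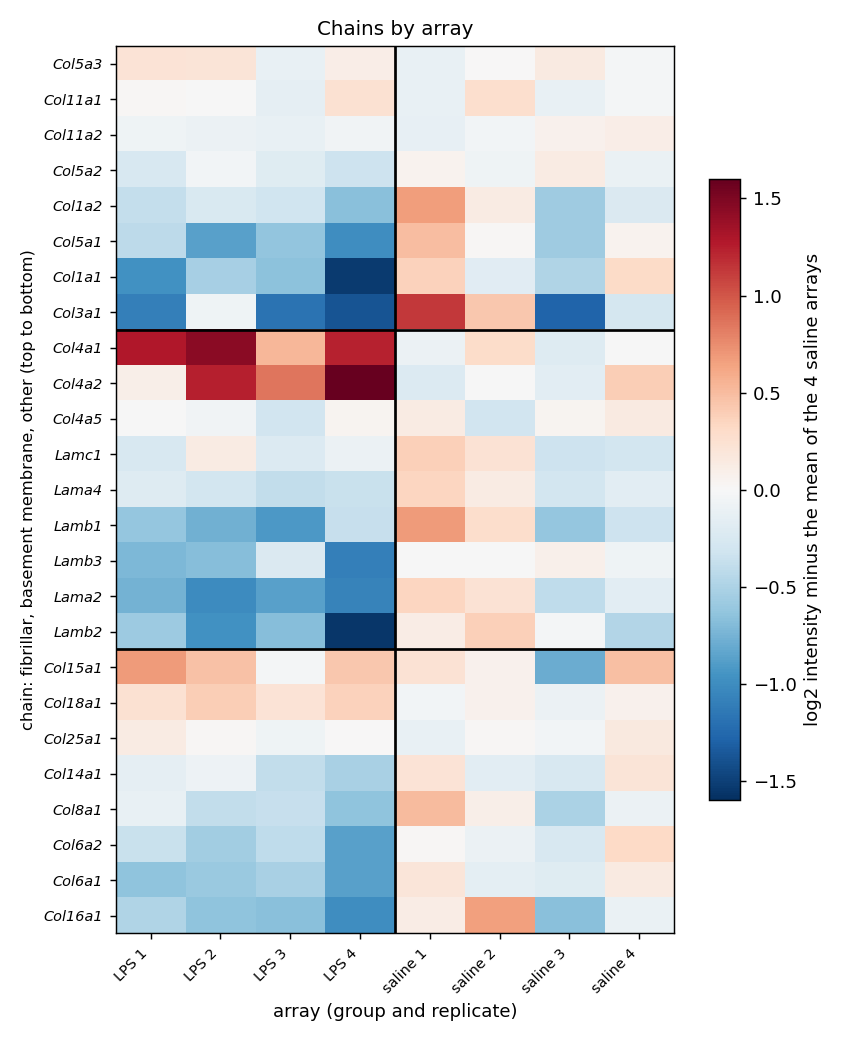
Log2 intensity of each tested chain (rows, in 3 classes) on each array (columns, LPS left of saline) minus the mean of its 4 saline arrays, in red where higher and blue where lower. Col4a1 and Col4a2 are the darkest red rows over the LPS columns (pale only for Col4a2 on LPS 1), and saline 3 is bluer than the other saline columns, most of all for Col3a1.

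The arrays of a group were not alike. As the mean deviation from the saline level over the 7 chains that fell, the LPS arrays stood at -0.63, -0.74, -0.57 and -1.14 and the saline arrays at 0.22, 0.02, -0.27 and 0.02. LPS 4 was the lowest for these chains and, with LPS 2, the highest for the type IV pair, whose mean deviation was 0.69, 1.34, 0.70 and 1.5 with LPS and -0.16, 0.15, -0.19 and 0.19 with saline. Over all 8 fibrillar chains the deviations were -0.37, -0.21, -0.42 and -0.57 with LPS and 0.29, 0.07, -0.34 and -0.03 with saline. Saline 3 thus lay among the LPS arrays for the fibrillar chains as a class, but not for the type IV pair. The same held for the basement membrane class, with saline 3 at -0.21 and LPS arrays between -0.25 and -0.11. Saline 4, at -0.11, was level there with the highest LPS array, and this class mean joins rising type IV with falling laminin chains. For the other chains saline 3 also lay among the LPS arrays, at -0.35 with LPS arrays between -0.39 and -0.09.

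The dates in the names of the scanner exports place the arrays on 3 days, taken here as scan days. The first held LPS 2, 3 and 4 with saline 3 and 4, the second LPS 1 with saline 2, and the third saline 1 alone. On the first day no chain passed limma's test, and 6 were lower and 3 higher at an unadjusted p under 0.05. Of all tested features 4.54% passed that day (2.91% higher and 1.63% lower with LPS). The 9 chains called over all arrays kept their direction on both days that held both groups. The arrays of those days are among the arrays that picked the 9 chains, so the kept direction is no separate support. On the first day Col4a1 differed by 1.17 (limma adjusted p = 0.069), Col4a2 by 1.18 (0.0816) and Lama2 by -0.70 (0.0504). The other falls measured that day were -0.82 for Lamb2, -0.67 for Lamb3, -0.64 for both Col6a1 and Col6a2, -0.81 for Col1a1 and -0.58 for Col5a1. On the second day, a single pair of arrays, Col4a1 differed by 0.98 but Col4a2 by only 0.10, and Lama2 and Lamb2 by -0.99 and -0.95.

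Steadiness between days varied among the chains that had not passed. Within the first day Col18a1 and Col15a1 changed by 0.34 and 0.44, against 0.31 and 0.39 over all arrays, while Col3a1 changed by -0.09, Col1a2 by -0.01 and Lamb1 by -0.20, against -0.93, -0.40 and -0.66 over all arrays. With scan day as a block in the model, Lama2, Lamb2 and Col6a1 fell (-0.79, -0.86 and -0.59) and Col4a1 rose (1.11), which leaves 3 falls and 1 rise; Col4a2 differed by 0.86 (limma adjusted p = 0.089). The slide numbers form 2 series, and LPS 2, 3 and 4 are the only arrays of theirs. With slide series as a block the contrast is therefore LPS 1 against the 4 saline arrays, with the spread of the lone LPS array assumed to be that of the others. There Col4a1 (1.27, limma adjusted p = 0.0452) passed, Col4a2 (0.10, 0.896) did not, and no chain fell, with 4 lower at an unadjusted p under 0.05.

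**Figure D4:**
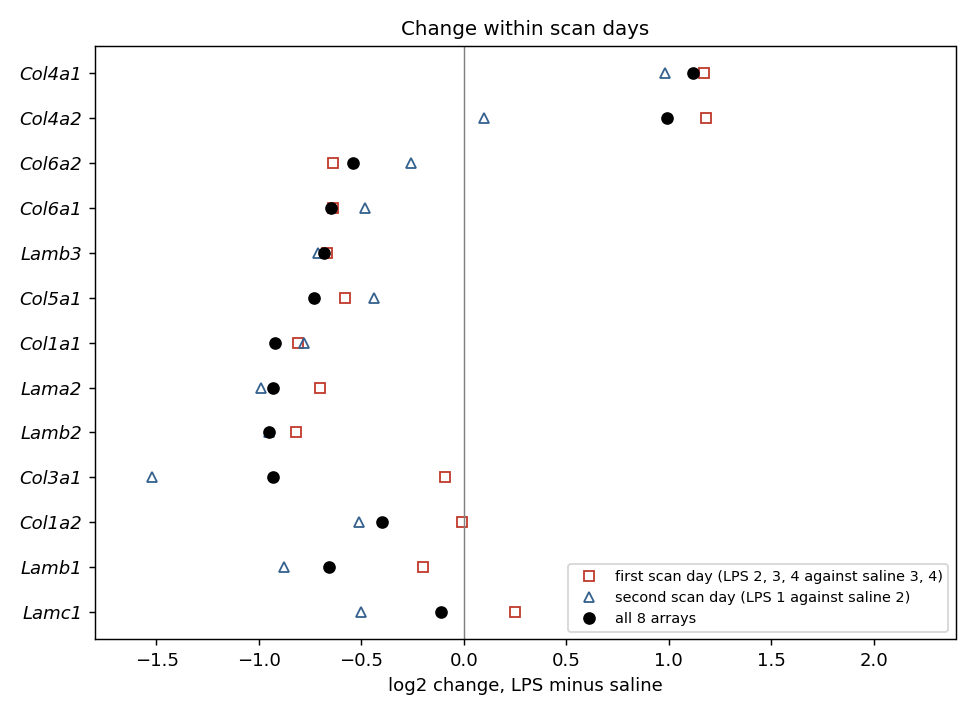
Log2 change (LPS minus saline, horizontal axis) of the 9 chains that passed the test and of Col3a1, Col1a2, Lamb1 and Lamc1, over all 8 arrays (black circles), within the first scan day (red squares, 3 LPS and 2 saline arrays) and within the second (blue triangles, 1 array of each). Col3a1 spreads from -1.52 to -0.09 between days, while Col4a1 stays between 0.98 and 1.17.

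Genes that build, cross-link and read these chains were described from lists of known members. Of 25 genes of collagen maturation and secretion 21 were tested, 2 rose and 2 fell, with a median of -0.16. At 9.52% each way these shares are close to those of all tested features, 9.3% and 9.36%. Plod1, a lysyl hydroxylase, read 8.79, 9.69, 9.42 and 8.83 with LPS, against 10.19, 11.04, 9.98 and 10.34 with saline, a fall of 1.21 on the log2 scale (SE 0.26, limma adjusted p = 0.0111) without overlap. Plod3, the lysyl hydroxylase that also glycosylates and is needed for type IV collagen secretion, read 10.78, 10.88, 10.57 and 10.58 with LPS, against 9.92, 10.21, 10.32 and 10.34 with saline. It rose by 0.51 (SE 0.14, limma adjusted p = 0.0283), also without overlap. With median scaling over all gene probes its change was 0.09 (limma adjusted p = 0.786). Creb3l1, a membrane-bound transcription factor of collagen-secreting cells, rose (limma adjusted p = 0.0146) and was above background on only 1 saline array, its change being 0.85 (SE 0.20) at the offset of 50, 1.21 at an offset of 16 and 1.85 with local background subtracted. Rcn3, a chaperone of the endoplasmic reticulum, fell by 0.79 (SE 0.24, limma adjusted p = 0.0454).

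The largest change among these genes was that of Lox, the lysyl oxidase that cross-links collagen and elastin. It read 8.79, 9.25, 9.10 and 8.35 with LPS, against 6.80, 6.80, 7.16 and 6.84 with saline. Every LPS array was more than 1 log2 unit above every saline array, and Lox rose by 1.97 (SE 0.19, limma adjusted p = 0.000148), a 3.92-fold rise. On the first scan day alone its change was 1.90 (limma adjusted p = 0.0267). Pcolce2, which enhances removal of the procollagen C-terminus, fell by 1.33 (SE 0.28, limma adjusted p = 0.00977). These were the only calls among 7 tested processing and cross-linking genes, whose median was 0.03. That is 14.3% each way, beside 9.3% and 9.36% of all tested features.

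Of 10 tested receptors 1 rose (10%) and 3 fell (30%), where 9.3% and 9.36% of all tested features did. Itga3, the alpha3 subunit of a laminin-binding integrin, read 10.64, 10.63, 10.32 and 10.62 with LPS, against 9.25, 9.33, 9.64 and 9.60 with saline, and rose by 1.10 (SE 0.14, limma adjusted p = 0.000571) with no overlap. Itga6, the alpha6 subunit of another laminin receptor, fell by 0.94 (SE 0.29, limma adjusted p = 0.0485). Itga11, a fibroblast receptor for fibrillar collagen, read 6.87, 6.57, 6.48 and 6.23 with LPS, against 7.72, 8.07, 7.76 and 8.11 with saline. It fell (limma adjusted p = 0.000405) and was above background on only 1 LPS array, so the size of the fall depends on the treatment of background: -1.38 (SE 0.16) at the offset of 50, -1.83 at an offset of 16 and -2.54 with local background subtracted. The median of the receptor list was 0.16 over all arrays and -0.09 on the first scan day.

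Among 7 tested partners of the basement membrane, Nid1 alone passed, a fall in 14.3% of the list where 9.36% of all tested features fell. Nid1 encodes nidogen, which links the laminin network to type IV collagen. It read 9.27, 9.64, 9.94 and 9.18 with LPS, against 10.44, 10.62, 10.88 and 10.36 with saline, a fall of 1.07 on the log2 scale (SE 0.19, limma adjusted p = 0.00398) with no overlap. The list median was -0.30.

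The proteoglycans and glycoproteins of fibrils had 15 tested genes, of which 5 fell (33.3%) and 1 rose (6.67%), with a median of -0.48. Over all tested features these shares were 9.36% and 9.3%. Among the falls was Aspn, above background on no LPS array, which entered the test through the 4 saline arrays alone. Fbln2, the microfibril and basement membrane protein fibulin-2, fell by 1.38 (SE 0.22, limma adjusted p = 0.00221), and Ogn, a small leucine-rich proteoglycan, fell by 1.15 (SE 0.16, limma adjusted p = 0.00133). The rise was that of the fibril-binding proteoglycan Dcn (0.48, SE 0.13, limma adjusted p = 0.0281), which turned to -0.15 when its probes were averaged in place of the brightest one. Of 18 tested genes of TGF-beta signalling, the main inducer of matrix genes in fibroblasts, 1 rose and 1 fell, with a median of -0.09. Each is 5.56% of the list, below the shares of all tested features. Tgfbr2, a receptor chain, rose by 0.50 (SE 0.14, limma adjusted p = 0.0355), and Ltbp4, which holds latent TGF-beta in the matrix, fell by 1.04 (SE 0.28, limma adjusted p = 0.0266). With median scaling over all gene probes Tgfbr2 changed by 0.07 (limma adjusted p = 0.817).

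On the first scan day the 15 genes named from these lists kept the direction they had over all arrays. The arrays of that day are among those that picked the genes, so the kept direction is no separate support. Lox, Itga3 (0.91), Itga11 (-1.51) and Fbln2 (-1.56) passed there, with limma adjusted p values of 0.0267, 0.0321, 0.0133 and 0.0366. Nid1 read -1.04 (limma adjusted p = 0.0826), Ogn -1.16 (0.0509), Pcolce2 -0.98 (0.0504) and Plod1 -0.85 (0.127). The calls on Lox, Itga3, Itga11, Plod1, Creb3l1, Pcolce2, Nid1, Fbln2 and Ogn held whichever single array was left out. Those on Plod3 (without LPS 1, LPS 2, saline 1 or saline 2), Dcn (LPS 2, LPS 4, saline 1 or saline 2) and Ltbp4 (LPS 4, saline 1, saline 2 or saline 4) did not, with adjusted p values up to 0.0855. Rcn3 passed only without LPS 3 or saline 3, Itga6 only without LPS 3 or saline 4, and Tgfbr2 only without LPS 1 or saline 4, with adjusted p values up to 0.123 otherwise. With median scaling over all gene probes the rises of Itga3 (0.68, limma adjusted p = 0.0517), Creb3l1 (0.69, 0.0515) and Dcn (0.16, 0.617) also missed the threshold. The fall of Rcn3 missed it there too (-1.23, 0.0564), while Lox passed (1.7, 0.0038). With median scaling over tested probes Plod3 (0.42, limma adjusted p = 0.109) and Tgfbr2 (0.41, 0.0969) did not pass.

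**Figure D5:**
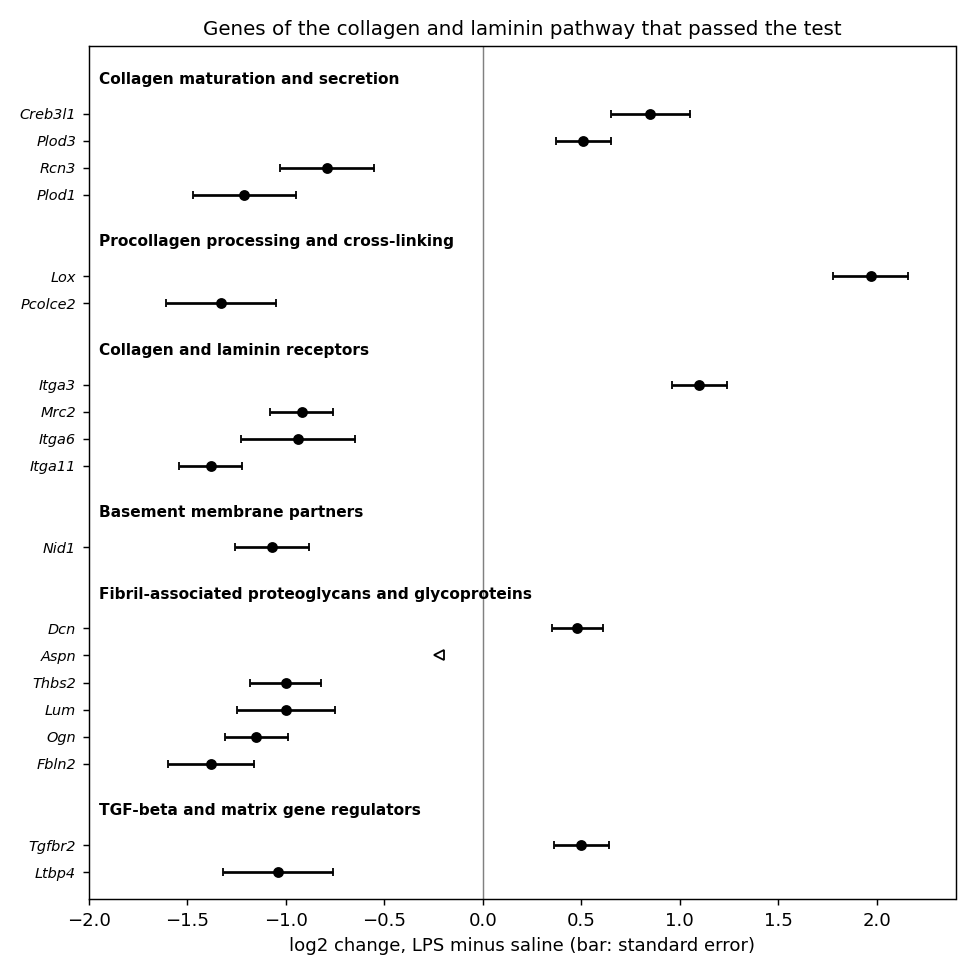
Log2 change (LPS minus saline, horizontal axis) with standard error of the genes that passed the test in 6 lists of collagen and laminin biology (4 arrays a group). Lox lies farthest right at 1.97, and Fbln2 lies at -1.38. The point of Itga11, above background on 1 LPS array, would lie farther left with less offset. The open triangle is a bound for Aspn, which was above background on no LPS array and at least 1.16-fold lower there.

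The tissue label was met by the markers. All 8 cardiomyocyte genes were above background on all arrays, and none passed limma's test (median -0.50, with 4 at an unadjusted p under 0.05). Neutrophil genes, which mark blood-borne cells, rose in 4 of 5 tested cases (80%, beside 9.3% of all tested features). The summed level of the list was 1798 to 2436 on LPS arrays and 388 to 861 on saline arrays. Only 1 of the 5 was above background on all 8 arrays. Csf3r, among the rises, was above background on no saline array and so entered the test through the LPS arrays alone. Of 5 tested macrophage and monocyte genes 2 fell (40%, beside 9.36% of all tested features) and none rose. Their summed level was 1921 to 3046 on LPS arrays and 3175 to 3792 on saline arrays. It thus separated the groups, as did the sums of the endothelial and the smooth muscle and pericyte lists. The epicardial, Schwann cell and chondrocyte or valve lists, with 4, 1 and 2 tested genes, had none that passed, with 0, 1 and 0 at an unadjusted p under 0.05. The part of these cells in the results was not tested. Between 37.3% and 42.6% of gene probes were above background on LPS arrays, and between 39.7% and 46.9% on saline arrays.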

How the data were processed

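RNA from 8 hearts was hybridised to 8 1-colour arrays, 1 per mouse. Per the file headers, the deposited scanner exports give the intensity of each spot and of its surroundings without normalization. Median spot intensities were background-corrected (normexp, offset 50), put on the log2 scale and quantile normalized between arrays, with bad-flagged spots set missing (limma 3.58.1, R 4.3.3). The offset shrinks the changes of dim genes. A probe entered where its signal exceeded the 95th percentile of 94 negative-control spots on at least 4 of the 8 arrays, which kept 14914 of 35078 gene probes. Of the gene probes, 23071 matched 1 symbol through their accession and 12007 matched none. The brightest probe stood for a gene, which gave 8875 genes and 3225 unnamed probes. LPS and saline were compared by limma's moderated linear model, whose prior gave 4.13 of 10.13 degrees of freedom, with Benjamini-Hochberg adjustment.

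The members, gene lists, trimer pairs and tests were chosen with earlier results of these data known. 1 chain that met the symbol rule is not reported here and is left out of all counts of chains. Every other tested chain is named, chains that passed and 15 core chains (where tested) also by array, and the 2 largest rises and falls of each further list. The deposited value table was not used, since its probe identifiers matched none of the scanner files. The alternatives are given in the closing section. The number of arrays limits the precision. The p-values set each difference against the spread between arrays of a group, moderated over all tested features. That spread mixes differences between mice with those between scan days and slides.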

Additional observations from a re-analysis of the deposited data

How the results depend on the processing

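The count of 7 chains that fell with LPS became 3 with no filter on dim probes, 3 with scan day as a block, 0 within the first scan day (3 LPS and 2 saline arrays) and 0 with slide series as a block, where LPS 1 alone stands against the saline arrays. Leaving out 1 array at a time it ran from 2 (without saline 2) to 10 (without saline 3). It was 3 without LPS 2 or saline 1, and 4 without LPS 4 or saline 4. The count of 2 that rose became 0 with median scaling over all gene probes, 0 within the first scan day, and 1 with scan day or slide series as a block. It ran from 1 (without any single array but LPS 1) to 2 (without LPS 1). No other setting moved either count by more than 1.5 times. The share of all tested features that passed moved too: it was 18.7% over all arrays, 7.81% with no filter, 14.8% with scan day as a block, 8.13% with slide series as a block and 12.2% without saline 2. With no filter the 2 rises were those of Col4a1 and Col18a1. Calls gained with mean spot brightness were those of Col5a2 (-0.37), Col8a1, Col18a1 and Lamb1 (-0.61).

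The fibrillar median of -0.31 became -0.55 with local background subtracted, -0.51 with median scaling over all gene probes (where all features stood at -0.31) and -0.57 over chains above background on all 8 arrays, but -0.17 with median scaling over tested probes, -0.18 with scan day as a block, -0.15 with no filter and -0.14 within the first scan day. The basement membrane median of -0.31 became -0.64 with median scaling over all gene probes, -0.10 with no filter, -0.18 with scan day as a block and -0.20 within the first scan day. The median of the other chains, -0.33, became -0.56 with subtraction, -0.58 with that scaling, -0.20 with scan day as a block, -0.24 within the first scan day, -0.14 with slide series as a block and turned to 0.01 with no filter, where more chains enter. Chains with changes near 0 turned sign: with that scaling Col15a1 (-0.02), Col5a3 (-0.03), Col11a1 (-0.08) and Col25a1 (-0.04); with median scaling over tested probes Col5a2 (0.02) and Col11a2 (0.21); with mean spot brightness Col11a1 (-0.01) and Col11a2 (0.01); with array weights Lamc1 (0.04) and Col25a1 (-0.02). With scan day as a block Lamc1 (0.03) and Col25a1 (-0.01) turned, within the first day Lamc1 (0.25) and Col25a1 (-0.07), and with single arrays left out Col25a1 (range -0.02 to 0.08), Col11a1 (-0.04 to 0.11) and Lamc1 (-0.22 to 0.01). Dcn turned to -0.15 with probes averaged. The cause of these shifts was not tested.

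Replicate numbers are shared by both groups, and whether they pair the arrays is not stated. The deviations of same-numbered arrays from their group means correlated at 0.09, -0.14, 0.09 and -0.08. These values show no pairing, but so few arrays cannot exclude it. The names of the scanner exports also carry a redip mark, of unstated meaning, on replicates 2 and 4 of both groups. With replicate number as a block 5 chains fell and 2 rose, and Col1a1 (limma adjusted p = 0.0603) and Col6a2 (0.0868) missed the threshold. Signal over background limits the dim chains: values under about 6.36 to 6.70 were not told from negative controls.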
